A study of Mus musculus with 6 samples.

Results

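Collagens are the triple-helical proteins of the extracellular matrix, and their genes are named by type and chain (Col1a1 encodes the first chain of type I). The collagen genes described here were all probe sets whose gene symbol reads Col, a type number, a and a chain number. The rule found 47 probe sets of 23346 on the array, for 43 genes of the 20723 symbols. Col5a1, Col6a5, Col6a6 and Col20a1 had 2 probe sets each, and such a gene is represented by its brighter probe set.

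The levels come from mouse embryonic fibroblast lines (MEFs, connective tissue cells grown out of embryos) of the Ola129 strain. RNA of 6 samples was hybridised to whole-transcript arrays. The groups were Ink4a/Arf-/- Ezh2 -/- with 2 arrays, Ink4a/Arf-/- Ezh2 fx/fx with 2 arrays, Ink4a/Arf+/+ Ezh2 -/- with 1 array and Ink4a/Arf+/+ Ezh2 fx/fx with 1 array. Ezh2 encodes the catalytic subunit of a Polycomb complex that places a repressive methyl mark on histones, and the Ink4a/Arf locus encodes inhibitors of cell cycle entry and of p53 degradation. All lines grew on gelatin, itself denatured collagen, with serum and leukemia inhibitory factor, and were collected in exponential growth. The titles name genotypes, whereas the text on the series speaks of esiRNA transfection, and the titles were followed here. The labels do not say how the alleles were made or how the fx/fx allele of Ezh2 differs from wild type. Replicates are not stated to be separate cultures, and p-values therefore measure only the spread between these arrays.

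As background, fibrillar collagens (types I, II, III, V, XI, XXIV and XXVII) form the banded fibrils of skin, tendon, bone and cartilage. Type IV chains form the sheet of basement membranes, and FACIT collagens (fibril-associated collagens with interrupted triple helices) sit on the surface of fibrils. Types VIII and X are short chains that assemble into open lattices, the first around vessels and under corneal endothelium, the other in cartilage that is about to turn to bone. Type VI forms beaded filaments, type VII anchors epithelium to the tissue below, multiplexins (types XV and XVIII) lie in basement membranes, and a further group spans the cell membrane. Fibroblasts are the main source of types I, III, V and VI in connective tissue.

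Precision is limited by having 1 or 2 arrays per group. The median log2 level of an array was 8.25 to 8.32 for Ink4a/Arf-/- cells, but 7.51 (Ezh2 -/-) and 7.50 (fx/fx) for Ink4a/Arf+/+ cells, so log2 levels are set side by side only within a background. In Ink4a/Arf-/- cells fx/fx replicate 1 stood apart on the first principal component, which held 50.1% of the variance. Ezh2 itself read 10.62 and 10.51 on the Ink4a/Arf-/- Ezh2 -/- arrays, against 10.92 and 10.91 on the fx/fx arrays, and 10.12 in Ink4a/Arf+/+ Ezh2 -/- cells, against 10.48 in fx/fx cells. Cdkn2a, the gene of the Ink4a/Arf locus, read 8.11 and 8.20 in Ink4a/Arf-/- Ezh2 -/- cells, against 8.29 and 8.18 in fx/fx cells, and 8.62 in Ink4a/Arf+/+ Ezh2 -/- cells, against 7.91 in fx/fx cells. No source used here places the probes of either gene relative to the deleted part, so these levels check no label. Of 10 fibroblast markers, 9 lay above the array median on each Ink4a/Arf-/- array and 10 on each Ink4a/Arf+/+ array, with Vim and Fn1 among the brightest. The 6 endothelial and the 4 pluripotency markers were below the median on all 6 arrays. Smooth muscle and pericyte markers lay above it for 5 of 6 genes in Ink4a/Arf+/+ Ezh2 -/- cells and for 6 of 6 on every other array, epithelial markers for 0 to 2 of 7, and Schwann cell markers for 0 or 1 of 4.

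Collagen levels spanned most of the range of the arrays. In Ink4a/Arf-/- cells 28 and 26 of the 43 genes lay above the array median on the Ezh2 -/- arrays, and 28 and 26 did so on the fx/fx arrays. In Ink4a/Arf+/+ cells the count was 29 for Ezh2 -/- and 31 for fx/fx. The type I chains Col1a1 and Col1a2 lay between the 98.9th and the 99.72nd percentile of every array, and the FACIT gene Col12a1 between the 98.29th and the 99.51st. On the Ink4a/Arf+/+ Ezh2 -/- array Col8a1 (99.52) and Col2a1 (99.25) ranked above Col1a2 (99.18). Col3a1 ranked lower in Ink4a/Arf-/- cells, between 87.82 and 88.62. The fibrillar class had a median percentile between 82.15 and 83.73 in Ink4a/Arf-/- cells and of 92.53 and 92.22 in Ink4a/Arf+/+ Ezh2 -/- and fx/fx cells. Type IV had 3 of 6 chains above the median on every array, and its median percentile lay between 44.78 and 47.54 in Ink4a/Arf-/- cells.

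The first comparison set Ezh2 -/- against fx/fx cells in the Ink4a/Arf-/- background. Most collagen genes differed little. The 3 network-forming genes, Col10a1, Col8a1 and Col8a2, were all higher in Ezh2 -/- cells, by 1.61-fold, 1.17-fold and 1.15-fold, whereas the fibrillar, FACIT and type VI classes were centred near 0. Limma with Benjamini-Hochberg adjustment over all probe sets called 0 of the 43 genes at an adjusted p below 0.05, as it did for 0% of all genes. At an unadjusted p below 0.05 limma found 3 higher genes, Col2a1, Col8a1 and Col10a1, against 2.8% of all genes, and 0 lower ones, against 3.73% of all genes. By the authors' deposited p-values, adjusted in the same way, 0 passed. Both Ezh2 -/- arrays lay above both fx/fx arrays for 9 genes (20.9%, against 13.4% of all genes), namely Col2a1, Col4a5, Col8a1, Col8a2, Col10a1, Col11a1, Col14a1, Col18a1 and Col27a1. Both lay below for Col6a3, Col6a4 and Col25a1, which is 6.98% of the collagens, against 23.3% of all genes.

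**Figure D1:**
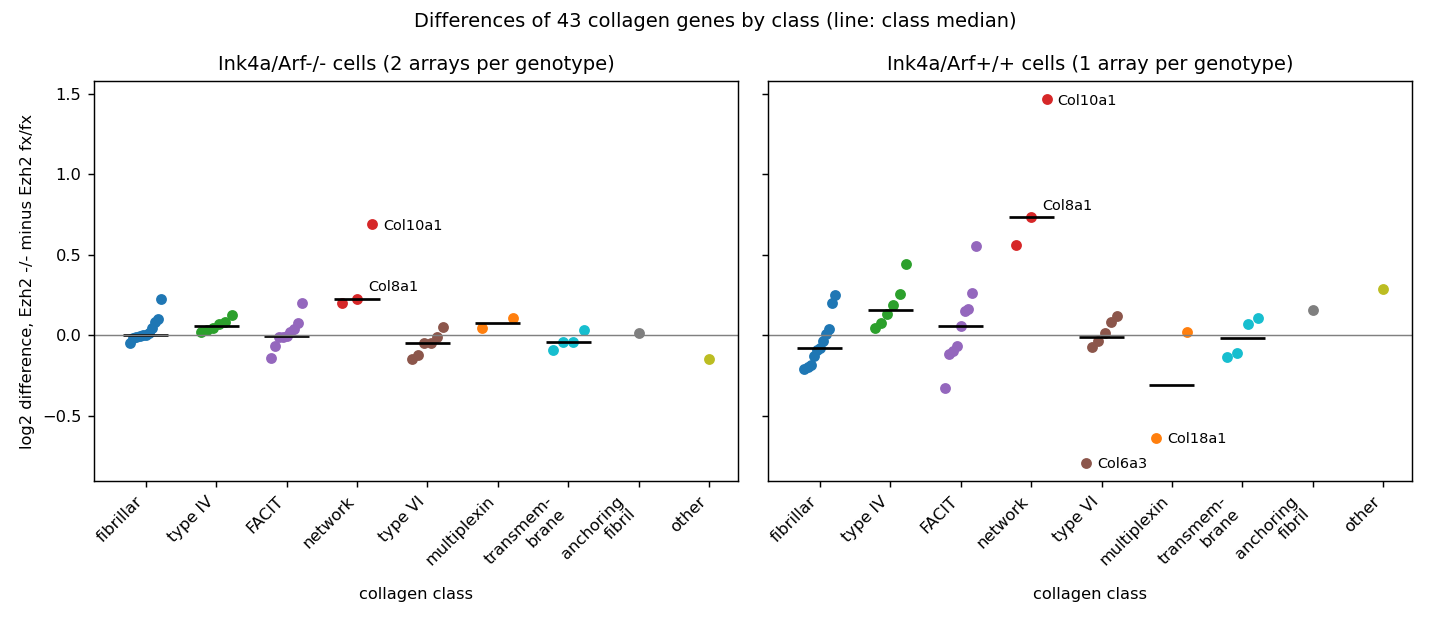
Log2 difference of each of the 43 collagen genes, Ezh2 -/- minus Ezh2 fx/fx, by collagen class, in Ink4a/Arf-/- cells (left, means of 2 arrays per genotype) and in Ink4a/Arf+/+ cells (right, 1 array per genotype). Each point is a gene and each line a class median, and the 3 network-forming genes lie between 0.20 and 0.69 on the left and between 0.56 and 1.47 on the right.

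Col10a1, which encodes the only chain of type X collagen and marks hypertrophic chondrocytes, had the largest difference of the 43 genes. It read 9.70 and 9.79 on the Ezh2 -/- arrays, against 9.09 and 9.02 on the fx/fx arrays. The groups did not overlap, and their gap was several times the distance between replicates. The log2 difference was 0.69 ± 0.08 (SE, n = 2 arrays per genotype), with an unadjusted p of 0.000161 and an adjusted p of 0.372 in limma with Benjamini-Hochberg adjustment, so that it did not pass. Limma with a variance trend on level gave an adjusted p of 0.00463, and over all alternatives the adjusted p lay between 0.00463 and 1. In the RefSeq table Col10a1 lies within the span of Nt5dc1, whose function is not well described. Nt5dc1 read 9.31 and 9.32 in Ezh2 -/- cells, against 9.27 and 9.34 in fx/fx cells, a log2 difference of 0.01, so the host gene's probe set did not show the difference seen for Col10a1.

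Type VIII collagen is built from the chains of Col8a1 and Col8a2. Col8a1 read 12.22 and 12.12 in Ezh2 -/- cells, against 11.98 and 11.90 in fx/fx cells. Each Ezh2 -/- array was above each fx/fx array, with a difference of 0.23 ± 0.08 (SE, n = 2) and a limma Benjamini-Hochberg adjusted p of 0.684. Col8a2 read 8.14 and 8.09 in Ezh2 -/- cells, against 8.06 and 7.76 in fx/fx cells. Its difference of 0.20 was smaller than the 0.30 between its fx/fx replicates. The median of the 3 network-forming genes was 0.23, against 0.02 over all collagens and -0.02 over all genes. Between replicates of 1 genotype the median of these 3 genes differed by 0.04 (Ezh2 -/-) and 0.08 (fx/fx). Without fx/fx replicate 1 the class median was 0.35.

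The promoters of the network-forming genes are shown because all 3 genes were higher in Ezh2 -/- than in fx/fx cells in both backgrounds. The windows, from RefSeq (GRCm38.p6), run from 250 bases before to 50 bases after the gene's first listed start. They lie at chr10:34389731-34390030 (plus strand, Col10a1), chr16:57754688-57754987 (minus strand, Col8a1) and chr4:126286544-126286843 (plus strand, Col8a2). Capitals mark matches on either strand, which may overlap. The TATA box was searched as TATAAA and the GC box as GGGCGG. The CCAAT box was searched by its name, and the AP-1 motif as TGANTCA.
Col10a1: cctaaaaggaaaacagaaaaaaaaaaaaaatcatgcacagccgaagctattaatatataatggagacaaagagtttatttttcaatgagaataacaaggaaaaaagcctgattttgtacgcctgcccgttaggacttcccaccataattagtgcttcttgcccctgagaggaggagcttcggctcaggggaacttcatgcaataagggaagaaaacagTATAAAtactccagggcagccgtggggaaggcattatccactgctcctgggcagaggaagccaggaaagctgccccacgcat
Col8a1: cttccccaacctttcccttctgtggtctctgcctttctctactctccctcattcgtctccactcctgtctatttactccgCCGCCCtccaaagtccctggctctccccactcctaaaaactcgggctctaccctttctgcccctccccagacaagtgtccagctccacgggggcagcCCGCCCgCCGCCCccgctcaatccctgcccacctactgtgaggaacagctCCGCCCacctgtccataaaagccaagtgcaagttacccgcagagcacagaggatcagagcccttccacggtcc
Col8a2: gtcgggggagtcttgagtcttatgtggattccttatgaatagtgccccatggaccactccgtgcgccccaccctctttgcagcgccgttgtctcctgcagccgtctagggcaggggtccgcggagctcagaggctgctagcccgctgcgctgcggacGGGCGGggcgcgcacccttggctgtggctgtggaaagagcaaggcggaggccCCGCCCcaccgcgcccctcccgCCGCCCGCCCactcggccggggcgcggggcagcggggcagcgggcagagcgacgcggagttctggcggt
The Col10a1 window held 1 TATA box, no GC box and 44.3% G and C. Col8a1 and Col8a2 held 4 GC boxes each and no TATA box, with 60.3% and 71.7% G and C. None of the 4 motifs was in all 3 windows. Of the 43 genes 35 had a promoter in the table. A GC box was in 62.9% of these, against 35.9% of the 27025 genes with a promoter, a TATA box in 14.3% against 14.2%, a CCAAT box in 34.3% against 37.9%, and the AP-1 motif in 2.86% against 7.93%. Median G and C was 60% for collagens and 52.7% for all genes.

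Fibrillar genes were nearly level between the genotypes. Col1a1, the main chain of type I collagen, read 13.37 and 13.38 in Ezh2 -/- cells, against 13.37 and 13.38 in fx/fx cells. Its partner Col1a2 read 13.13 and 13.12, against 13.12 and 13.10 in fx/fx cells. For both genes the arrays of the genotypes interleaved, and the difference was 0.00 ± 0.07 for Col1a1 and 0.02 ± 0.07 for Col1a2 (SE, n = 2). Both rank near the top of the arrays. Col3a1, which forms the fine fibrils of skin and vessels, read 11.09 and 11.17 in Ezh2 -/- cells, against 11.18 and 11.11 in fx/fx cells. The type V chains start and limit type I fibrils. Col5a1 read 10.68 and 10.71, against 10.80 and 10.68 in fx/fx cells, and Col5a2 read 11.76 and 11.74, against 11.74 and 11.77 in fx/fx cells. Col2a1, the cartilage fibril gene, was the exception in the class. It read 10.84 and 10.82 in Ezh2 -/- cells, against 10.62 and 10.58 in fx/fx cells, a difference of 0.23 ± 0.07 that did not pass (limma, Benjamini-Hochberg adjusted p = 0.655, unadjusted p = 0.021). The other 10 fibrillar genes lay between -0.05 (Col5a1) and 0.10 (Col11a1). The class median was 0.00, with 7 of 11 genes above 0, against 39.5% of all genes.

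All 6 type IV genes had a difference above 0, against 39.5% of all genes, but all 6 differences were small. The class median was 0.06 and the range 0.02 to 0.13. Col4a1 and Col4a2, the chains found in nearly every basement membrane, read 10.43 and 10.36 (Col4a1) and 10.50 and 10.44 (Col4a2) in Ezh2 -/- cells, against 10.42 and 10.32 (Col4a1) and 10.46 and 10.31 (Col4a2) in fx/fx cells. The genotypes overlapped for both genes. Only Col4a5, mutated in Alport syndrome in humans, had both Ezh2 -/- arrays above both fx/fx arrays, at 8.48 and 8.49, against 8.43 and 8.29. Without fx/fx replicate 2 the class median was 0.01, with 4 of 6 genes above 0.

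Type IV genes lie in head-to-head pairs. The windows of Col4a1 (minus strand) and Col4a2 (plus strand) share 78 bases at chr8:11312777-11312854 of GRCm38.p6, shown on the plus strand because both genes start within it.
Col4a1/Col4a2: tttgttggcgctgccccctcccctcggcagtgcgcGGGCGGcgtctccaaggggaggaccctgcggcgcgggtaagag
This stretch holds 9 CpG dinucleotides and 1 GC box. By the RefSeq annotation, 15 collagen genes form 8 adjacent pairs with no coding gene between them. Both genes of a pair differed in the same direction in 4 of 8 pairs in Ink4a/Arf-/- cells and in 6 of 8 in Ink4a/Arf+/+ cells. All 3 type IV pairs (Col4a1 and Col4a2, Col4a3 and Col4a4, Col4a5 and Col4a6) were among them in both backgrounds. That follows from all 6 type IV genes being above 0 in both backgrounds, whichever way they are paired. The share over all adjacent genes was not computed, so the pair counts are only a description.

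FACIT genes were centred at -0.01, with 4 of 9 above 0 (39.5% of all genes were) and a range of -0.14 (Col9a1) to 0.20 (Col14a1). Without fx/fx replicate 1 there were 8 of 9 above 0 with a median of 0.05, and without fx/fx replicate 2 there were 2 with a median of -0.06. Col12a1, which encodes the FACIT of dense connective tissue, read 13.01 and 12.98 in Ezh2 -/- cells, against 12.85 and 12.98 in fx/fx cells. Col14a1, a FACIT that regulates fibril growth in tendon and skin, read 8.34 and 8.24, against 8.15 and 8.03 in fx/fx cells. For Col14a1 the genotypes did not overlap, with a difference of 0.20 ± 0.08 and a limma Benjamini-Hochberg adjusted p of 0.727, and for Col12a1 they did. Col19a1, a rare FACIT of muscle and nerve tissue, read 7.36 and 7.38 in Ezh2 -/- cells and 7.42 and 7.24 in fx/fx cells, with its Ezh2 -/- values inside the fx/fx range.

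Type VI filaments are made of the chains of Col6a1, Col6a2 and a further chain, most often Col6a3. Col6a1 read 10.99 and 10.97 in Ezh2 -/- cells, against 11.09 and 10.96 in fx/fx cells, and Col6a2 read 10.66 and 10.63, against 10.72 and 10.59 in fx/fx cells. These arrays overlapped. Col6a3 read 11.37 and 11.33 in Ezh2 -/- cells, against 11.48 and 11.46 in fx/fx cells, and its genotypes did not overlap (difference -0.12 ± 0.07; limma, Benjamini-Hochberg adjusted p = 0.792). Of the 6 genes 1 was above 0, against 39.5% of all genes, and the class median was -0.05. Without fx/fx replicate 1 there were 4 above 0 with a median of 0.04, and without fx/fx replicate 2 there were 0 with a median of -0.12. The probe sets of Col6a5 disagreed, with a difference of 0.05 for the brighter and -0.24 for the other, which read 6.37 and 6.22 in Ezh2 -/- cells, against 6.66 and 6.40 in fx/fx cells. The brighter one read 7.39 and 7.47, against 7.53 and 7.22 in fx/fx cells. Those of Col6a6 agreed here (-0.05 and -0.04), at 8.36 and 8.44 in Ezh2 -/- cells, against 8.63 and 8.28 in fx/fx cells, for the brighter.

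Among the remaining genes, Col15a1 and Col18a1 encode the multiplexins, the second of which releases endostatin. Col15a1 read 7.69 and 7.73 in Ezh2 -/- cells, against 7.76 and 7.56 in fx/fx cells. Col18a1 read 8.76 and 8.77, against 8.73 and 8.60 in fx/fx cells, a difference of 0.11 ± 0.08. Only Col18a1 had genotypes that did not overlap. Col28a1, a gene of glial and nerve tissue that belongs to none of the classes above, read 7.18 and 7.35 in Ezh2 -/- cells, against 7.51 and 7.32 in fx/fx cells. Col7a1, the anchoring fibril gene, differed by 0.02, and the 4 transmembrane genes lay between -0.09 (Col25a1) and 0.04 (Col17a1).

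Over all 43 genes 25 had a difference above 0 (58.1%, against 39.5% of all genes), and the median was 0.02. That count depended on which fx/fx array was used. Between the fx/fx replicates, 38 of 43 collagens were higher on replicate 1, by a median of 0.13, against a median of -0.01 between the Ezh2 -/- replicates. Without fx/fx replicate 1 there were 36 genes above 0 with a median of 0.08, and without fx/fx replicate 2 there were 16 with a median of -0.05. The medians over all genes moved with them, to 0.02 and -0.07. The 3 network-forming genes stayed above 0 in each case, but Col8a2 was at 0.35 without fx/fx replicate 1 and at 0.05 without fx/fx replicate 2.

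**Figure D2:**
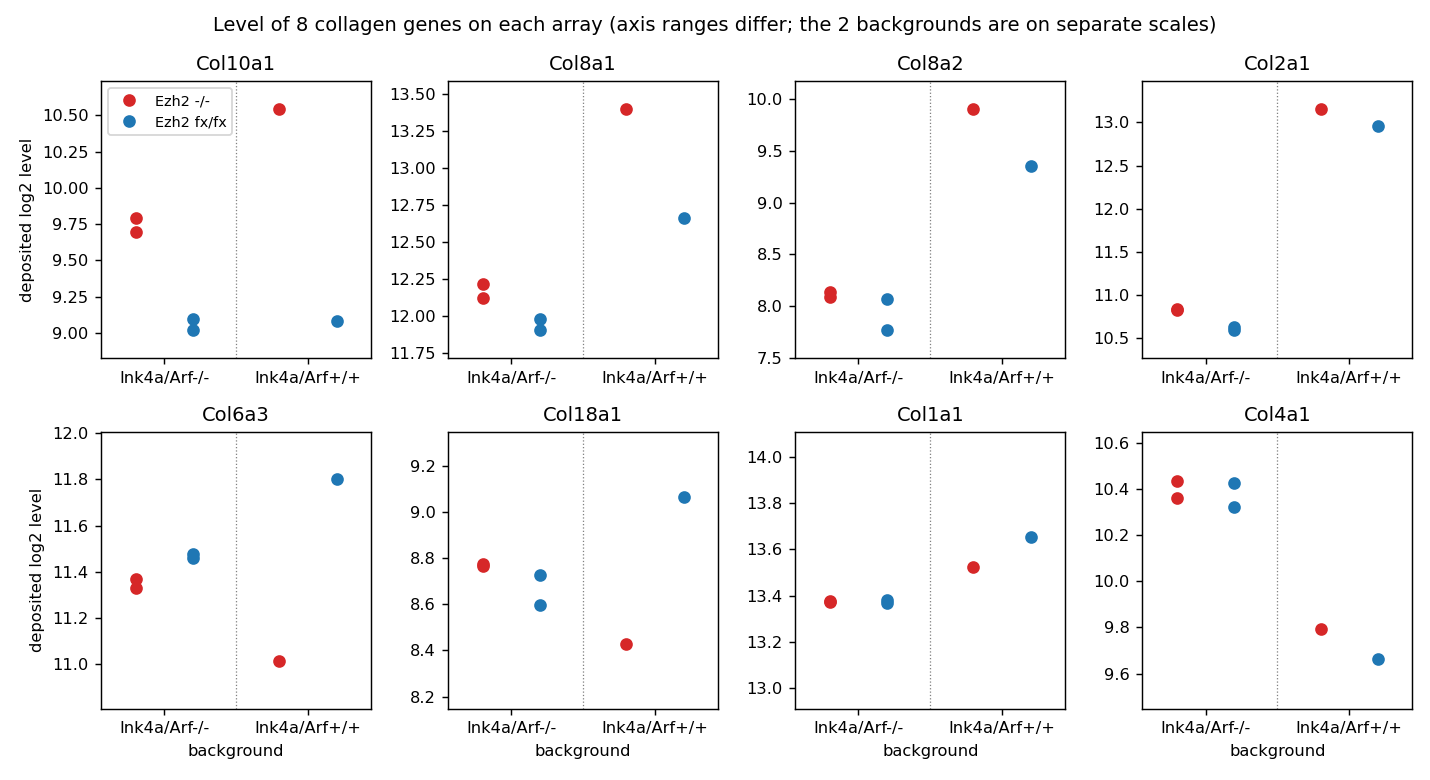
Deposited log2 level of 8 collagen genes on each of the 6 arrays, with Ezh2 -/- in red and Ezh2 fx/fx in blue, and with an axis range of its own for each gene. Each point is 1 array, and the levels of the 2 backgrounds are on separate scales. Col10a1 and Col8a1 are higher in Ezh2 -/- in both backgrounds, and Col6a3 is lower in both, at 11.01 against 11.80 in Ink4a/Arf+/+ cells.

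The second comparison set the 1 Ezh2 -/- array against the 1 fx/fx array of Ink4a/Arf+/+ cells. It has no replicate check, and differences are given as values without a test. All 3 network-forming genes were higher in Ezh2 -/- cells here too, and they had the 3 highest differences of the 43 genes, with Col19a1 level with Col8a2 at 0.56. Col10a1 read 10.55 in Ezh2 -/- cells, against 9.08 in fx/fx cells, a log2 difference of 1.47 or 2.76-fold. Col8a1 read 13.40, against 12.66 in fx/fx cells (0.74, or 1.67-fold), and Col8a2 read 9.91, against 9.35 in fx/fx cells (0.56, or 1.47-fold). Nt5dc1, which overlaps Col10a1, read 7.95 in Ezh2 -/- cells, against 8.06 in fx/fx cells. At a threshold of 2-fold, Col10a1 was the 1 collagen that was higher (2.33%, against 0.782% of all genes), and 0 were lower, against 0.246% of all genes. At 1.5-fold, Col8a1 joined it (4.65%, against 2.62% of all genes), and Col6a3 and Col18a1 were lower (4.65%, against 1.63% of all genes).

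Col6a3 and Col18a1 are shown in full as the collagens lowest in Ezh2 -/- relative to fx/fx cells of this background. Col6a3 read 11.01 in Ezh2 -/- cells, against 11.80 in fx/fx cells, a difference of -0.79, whereas its partner chains were nearly level, with 11.16 against 11.23 for Col6a1 and 11.28 against 11.31 for Col6a2. Col18a1 read 8.43, against 9.06 in fx/fx cells, a difference of -0.64, and the other multiplexin, Col15a1, read 7.36, against 7.34 in fx/fx cells. The Col6a3 window lies at chr1:90843922-90844221 and that of Col18a1 at chr10:77166481-77166780, both on the minus strand of GRCm38.p6 and from RefSeq, with the same 4 motifs in capitals.
Col6a3: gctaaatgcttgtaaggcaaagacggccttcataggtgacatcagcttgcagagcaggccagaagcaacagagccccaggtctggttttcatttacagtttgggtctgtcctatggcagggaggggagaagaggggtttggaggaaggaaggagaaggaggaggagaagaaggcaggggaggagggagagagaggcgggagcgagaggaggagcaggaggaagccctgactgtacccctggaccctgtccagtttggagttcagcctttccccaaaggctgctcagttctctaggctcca
Col18a1: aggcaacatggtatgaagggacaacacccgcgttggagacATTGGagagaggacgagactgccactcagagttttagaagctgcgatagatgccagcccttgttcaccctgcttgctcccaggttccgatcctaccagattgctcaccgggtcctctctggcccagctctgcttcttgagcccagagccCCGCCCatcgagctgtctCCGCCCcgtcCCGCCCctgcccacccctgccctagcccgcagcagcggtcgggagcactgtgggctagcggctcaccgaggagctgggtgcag
The Col6a3 window held none of the 4 motifs and 3 CpG dinucleotides, and that of Col18a1 held 3 GC boxes, 1 CCAAT box and 16 CpG dinucleotides. Whether any motif in these windows has a part in the differences was not tested.

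Of the main fibroblast chains, Col1a1 read 13.52 in Ezh2 -/- cells, against 13.65 in fx/fx cells, Col1a2 read 13.12 against 13.16, and Col3a1 read 11.46 against 11.64. Col5a1 read 10.42 in Ezh2 -/- cells, against 10.41 in fx/fx cells, and Col5a2 read 11.24 against 11.19. These differences lay between -0.18 and 0.04. Col2a1 read 13.16 in Ezh2 -/- cells, against 12.96 in fx/fx cells, a difference of 0.20. The fibrillar class had a median of -0.08, with 4 of 11 genes above 0, against 51.1% of all genes. All 6 type IV genes were above 0 (51.1% of all genes were), from 0.05 (Col4a4) to 0.45 (Col4a5). Col4a1 read 9.79 in Ezh2 -/- cells, against 9.66 in fx/fx cells, and Col4a2 read 10.47 against 10.39. Among FACIT genes the range was -0.33 (Col9a1, a cartilage chain) to 0.56 (Col19a1, at 8.08 in Ezh2 -/- and 7.53 in fx/fx cells), with a median of 0.06. Col12a1 read 13.40, against 13.34 in fx/fx cells, and Col14a1 read 9.90, against 10.01. Col28a1 read 7.40 in Ezh2 -/- cells, against 7.11 in fx/fx cells. The brighter probe sets of Col6a5 and Col6a6 read 6.51 and 7.76 in Ezh2 -/- cells, against 6.39 and 7.68 in fx/fx cells, and the dimmer Col6a6 probe set went the other way, at 5.68 against 5.82.

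Over the 43 genes 26 were above 0 in this background (60.5%, against 51.1% of all genes), with a median of 0.05, against 0.01 over all genes.

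Whether the Ezh2 difference itself differed between the backgrounds was tested with limma as the difference in Ink4a/Arf-/- cells minus that in Ink4a/Arf+/+ cells. The test assumes that single arrays have the spread of the replicated ones. It also assumes that a log2 difference has the same size on the scales of both backgrounds, which was not tested. The quartiles were 6.76 and 10.08 on Ink4a/Arf-/- Ezh2 -/- replicate 1, against 5.71 and 9.48 on the Ink4a/Arf+/+ Ezh2 -/- array. The network-forming genes were all below 0 (Col10a1 -0.78 ± 0.14, Col8a1 -0.51 ± 0.14 and Col8a2 -0.36 ± 0.20, SE). Their log2 excess was thus larger in Ink4a/Arf+/+ cells, on the separate scale of that background. Col6a3 (0.67 ± 0.12) and Col18a1 (0.74 ± 0.14) were the furthest above 0, since both were low in Ezh2 -/- cells of the Ink4a/Arf+/+ background. With Benjamini-Hochberg adjustment limma called 0 of the 43 genes, against 0.425% of all genes. At an unadjusted p below 0.05 limma found Col6a3 and Col18a1 above 0 (4.65%, against 4.49% of all genes), and Col8a1, Col10a1, Col19a1 and Col28a1 below 0 (9.3%, against 6.49% of all genes). Adjusted p-values from limma with Benjamini-Hochberg adjustment were 0.112 for Col10a1, 0.125 for Col6a3 and 0.127 for Col18a1. Leaving out the dimmest 30% of probe sets gave limma adjusted p-values of 0.034 (Col10a1), 0.0384 (Col6a3) and 0.04 (Col18a1). A variance trend in limma gave adjusted p-values of 0.00911, 0.00348 and 0.0223 for these genes, and 0.0171 for Col8a1. Over all alternatives limma's adjusted p lay between 0.00911 and 0.417 for Col10a1, 0.00348 and 0.5 for Col6a3, 0.0223 and 0.42 for Col18a1, and 0.0171 and 0.796 for Col8a1. The high ends came from leaving out 1 array.

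The directions in the backgrounds can be set side by side. Of the 43 genes 26 had the same sign in both (60.5%, against 57.5% of all genes), 17 being higher in both (39.5%, against 24.6%) and 9 lower in both (20.9%, against 32.9%). The correlation of the differences across the 43 genes was r = 0.657 (Spearman's rho 0.302). Without Col10a1 it was r = 0.369 (rho 0.251), against r = 0.274 (rho 0.254) over all genes. Genes are not independent replicates, and the value is a description. In the plot of one background against the other Col10a1 stands alone.

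**Figure D3:**
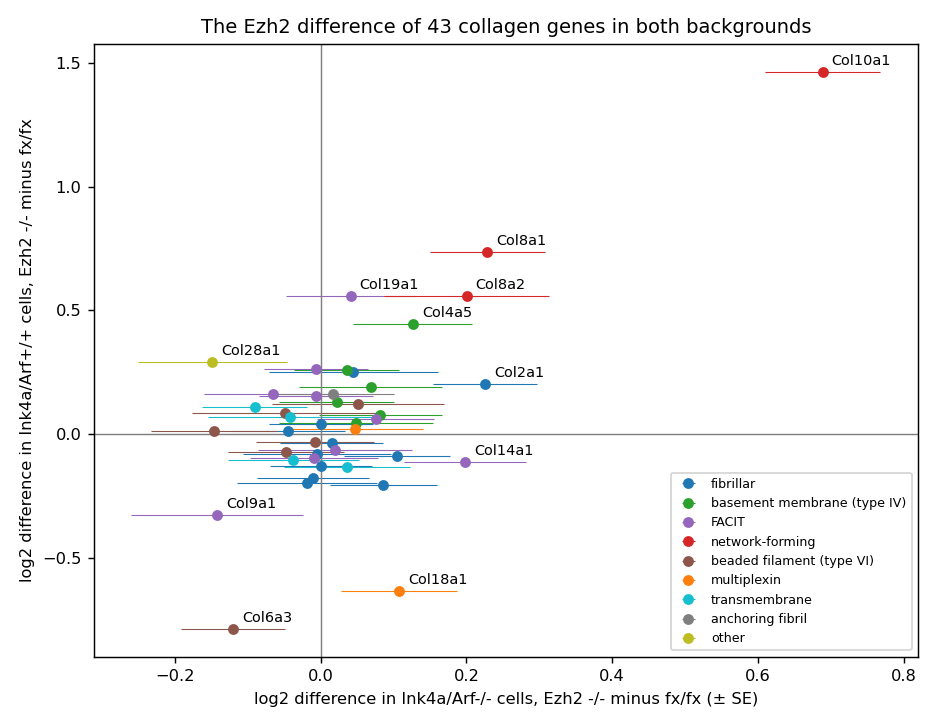
Log2 difference, Ezh2 -/- minus Ezh2 fx/fx, of the 43 collagen genes in Ink4a/Arf-/- cells (horizontal, with the SE of the limma fit) and in Ink4a/Arf+/+ cells (vertical, 1 array per genotype, no error). Points are genes coloured by class, and the 3 network-forming genes lie in the upper right, with Col10a1 at 0.69 and 1.47.

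The rank of a collagen among all probe sets of its array allows a view across the backgrounds, given here without a test. At least 10 percentile points lower in Ink4a/Arf-/- than in Ink4a/Arf+/+ cells, in both Ezh2 genotypes, were 5 of 43 collagens, against 3.5% of all genes. These were Col2a1, Col8a2, Col9a1, Col14a1 and Col19a1. Col5a3, a minor type V chain, was the 1 that was higher by as much, against 3.05% of all genes. Col2a1 ranked between 82.02 and 85.04 on the Ink4a/Arf-/- arrays and at 99.25 and 98.91 in Ink4a/Arf+/+ Ezh2 -/- and fx/fx cells. Col14a1 ranked between 47.22 and 50.82, against 80.21 and 81.49 in Ink4a/Arf+/+ Ezh2 -/- and fx/fx cells. The rule can miss bright genes, for which a large step in log2 level is a small step in rank. Col8a1 ranked between 94.27 and 96.04 on the Ink4a/Arf-/- arrays, against 99.52 (Ezh2 -/-) and 98.31 (fx/fx) for Ink4a/Arf+/+. Col6a2 ranked between 82.05 and 83.4, against 92.83 (Ezh2 -/-) and 93.01 (fx/fx). Neither met the rule. Of the 5 that did, Col2a1 and Col9a1 belong to cartilage. The other type IX chains, Col9a2 and Col9a3, and the chondrocyte gene Col10a1 did not meet it.

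**Figure D4:**
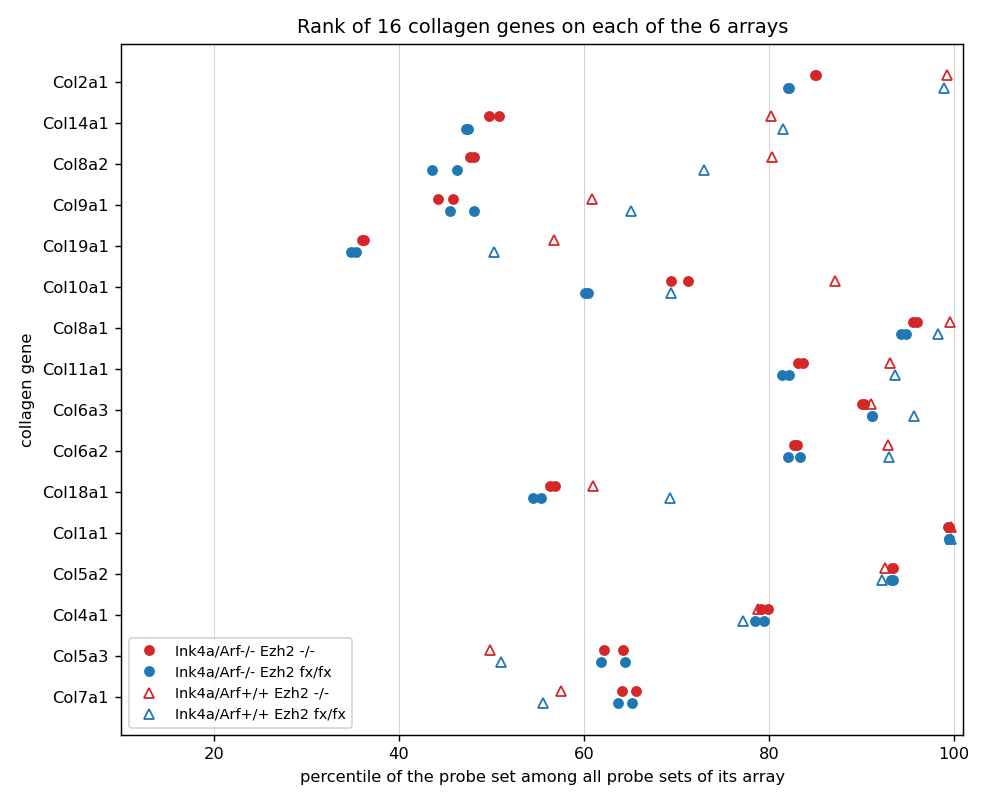
Percentile of 16 collagen genes among all 23346 probe sets of each array, with Ink4a/Arf-/- arrays as filled circles, Ink4a/Arf+/+ arrays as open triangles, Ezh2 -/- in red and Ezh2 fx/fx in blue. Col2a1, Col14a1, Col8a2, Col9a1 and Col19a1 sit further right in Ink4a/Arf+/+ cells, and Col1a1 is above the 99th percentile on all 6 arrays.

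Markers of cartilage and bone cells were looked at beside these collagens. Of 9 chondrocyte markers 3 lay above the array median on each Ink4a/Arf-/- array, while 7 did so in Ink4a/Arf+/+ Ezh2 -/- cells and 6 in fx/fx cells. Within the Ink4a/Arf-/- table their mean log2 level lay between 8.05 and 8.17. On the separate scale of the Ink4a/Arf+/+ table it was 9.54 in Ezh2 -/- cells and 9.24 in fx/fx cells. Lect1 (Cnmd), a cartilage protein, was the furthest apart in rank of the 9. It had percentile ranks of 26.56 to 28.51 on the Ink4a/Arf-/- arrays, against 96.87 (Ezh2 -/-) and 98.63 (fx/fx) for Ink4a/Arf+/+. Chad went the other way, at 27.94 to 31.46, against 24.31 (Ezh2 -/-) and 19.03 (fx/fx) for Ink4a/Arf+/+. So did Ihh by a little, at 52.68 to 56.54, against 50.89 (Ezh2 -/-) and 49.98 (fx/fx). Within the Ink4a/Arf+/+ background the cartilage matrix gene Comp read 10.99 in Ezh2 -/- cells, against 9.58 in fx/fx cells, and Hapln1 was higher by 1.07, while Lect1 and Matn1 were lower in Ezh2 -/- cells, by -0.67 and -0.49. Of 7 osteoblast markers 3 were above the array median in Ink4a/Arf+/+ Ezh2 -/- cells and 2 in fx/fx cells. Alpl, the bone alkaline phosphatase, read 8.83 in Ezh2 -/- cells, against 7.31 in fx/fx cells. In Ink4a/Arf-/- cells the 9 chondrocyte markers had a median Ezh2 difference of 0.04 and a range of -0.13 to 0.17. Of these 6 were above 0, against 39.5% of all genes, and none had an unadjusted limma p below 0.05. Col10a1 was higher in that background by 0.69. Of 6 smooth muscle and pericyte markers 5 were above 0 in that background, against 39.5% of all genes, with a median of 0.17, against -0.02 over all genes. Among these Rgs5, a pericyte marker, read 9.80 and 9.63 in Ezh2 -/- cells, against 9.13 and 9.08 in fx/fx cells, a difference of 0.61. Myh11, a smooth muscle myosin, differed by 0.35 and Cspg4 by 0.19. These 3 were higher at unadjusted limma p-values below 0.05, as were 2.8% of all genes. None passed, with limma Benjamini-Hochberg adjusted p-values of 0.507 (Rgs5), 0.592 (Myh11) and 0.72 (Cspg4). Acta2 differed by -0.01. In Ink4a/Arf+/+ cells 1 of the 6 was above 0, Rgs5 at 2.36, against 51.1% of all genes, and Myh11 differed by -0.81. Fibroblast markers were lower in Ink4a/Arf+/+ Ezh2 -/- than in fx/fx cells for 8 of 10 genes, whereas 51.1% of all genes were above 0. Their median was -0.20, against 0.01 over all genes. Pdgfra, which encodes a receptor for platelet-derived growth factor, differed by -1.41. Of the 8, Fn1 (-0.01), Vim (-0.01) and Twist1 (-0.02) were nearly level. Lum (0.74) and Pdgfrb (0.44) were higher. The part of any of these cell types in the collagen differences was not tested, and in bulk RNA fewer cells of a type and less RNA per cell cannot be told apart.

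The proteins that make, export, trim, cross-link and bind collagens were also followed, with 47 of 48 listed genes on the array. In Ink4a/Arf-/- cells limma called 0 of the 47 with Benjamini-Hochberg adjustment, against 0% of all genes. At an unadjusted p below 0.05, 5 were higher, against 2.8% of all genes, and 0 lower, against 3.73%. Their median difference was 0.02, with 31 of 47 above 0 (39.5% of all genes were), made up of 10 of 15 hydroxylases and glycosyltransferases, 6 of 10 chaperones and export factors, 5 of 8 proteinases and enhancers, 4 of 5 cross-linking enzymes and 6 of 9 receptors. Of the 5, 3 were collagen-binding integrin chains, surface receptors for collagen. Itga1 read 8.66 and 8.50 in Ezh2 -/- cells, against 8.23 and 8.25 in fx/fx cells, a difference of 0.34. Itga2 differed by 0.59 ± 0.09 (limma, Benjamini-Hochberg adjusted p = 0.52, and 0.0227 with a variance trend, the range over alternatives being 0.0227 to 1) and Itga11 by 0.29. The others were Leprel1, a prolyl 3-hydroxylase, at 0.43, and the cross-linking enzyme Loxl3, at 0.20. For Leprel1 replicate 1 minus replicate 2 was 0.29 (Ezh2 -/-) and -0.33 (fx/fx), and its Ezh2 difference in Ink4a/Arf+/+ cells was -0.21. Among chaperones and export factors Klhl12 differed by -0.22 and Fkbp14 by 0.15, and among proteinases and enhancers Adamts14 by -0.18 and Pcolce2 by 0.18.

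In Ink4a/Arf+/+ cells 27 of the 47 were above 0, against 51.1% of all genes, with a median of 0.03. The collagen uptake receptor Mrc2, at 0.62, was the 1 gene at least 1.5-fold higher, against 2.62% of all genes. There were 4 lower ones, against 1.63% of all genes, namely the proteinases Tll1 (-1.19) and Adamts2 (-0.86), the enhancer Pcolce2 (-0.88) and the cross-linking enzyme Loxl4 (-0.59). Integrin genes Itga2 and Itga1 were higher there by 0.41 and 0.28, and Itga11 read 12.56 in Ezh2 -/- cells, against 12.58 in fx/fx cells. Tll1 was the 1 of the 47 for which limma called the difference between the backgrounds, against 0.425% of all genes (1.27 ± 0.13, Benjamini-Hochberg adjusted p = 0.037). It read 12.02 and 11.98 in Ink4a/Arf-/- Ezh2 -/- cells, against 11.90 and 11.95 in fx/fx cells, and 8.99 in Ink4a/Arf+/+ Ezh2 -/- cells, against 10.18 in fx/fx cells. Without Ezh2 -/- replicate 1 its limma adjusted p was 0.103, and without Ezh2 -/- replicate 2 it was 0.0854, so that it no longer passed.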

How the data were processed

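Transcript levels of 6 samples were measured on Affymetrix whole-transcript arrays with biotin-labelled cDNA made from total RNA, per the labels' protocols. For each Ink4a/Arf background the authors deposited a table of log2 levels per array, with their own log2 fold change and p-value for each probe set. No source used here gives the normalization. The submitters' processing notes name limma without a version. The deposited p-values of the Ink4a/Arf-/- table served as an alternative and those of the other table were not used. Arrays were grouped by their titles. The collagen genes, classes, pathway and marker lists and the tests were chosen with earlier results of these data known.

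Limma 3.58.1 in R 4.3.3 was fitted to all probe sets of the 6 arrays with 1 mean per group, without a filter. Two-sided p-values were adjusted by Benjamini-Hochberg over all probe sets, and a call needed an adjusted p below 0.05. The Ink4a/Arf+/+ arrays have no replicate, so their difference was counted at 2-fold, and only Ink4a/Arf-/- arrays inform the spread. The fit was tested on simulated data. Scales differ between the tables, so ranks replaced the relative levels planned for a comparison across backgrounds.

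Values on every array are given for 14 chains typical of fibroblasts, the network-forming genes, collagens at least 2-fold different in Ink4a/Arf+/+ cells or at an unadjusted p below 0.05, and those whose probe sets disagree by over 0.2. Of each pathway list the 3 largest differences per background qualified for naming. Marker genes were named after their values were seen. Same-numbered replicates did not deviate together (correlation 0.03 over 2 pairs), so the numbers were taken not to pair the arrays. Alternatives were a filter on the dimmest 30% of probe sets, quantile normalization, a variance trend, the authors' p-values, the replicate number as a block, 1.5-fold, all probe sets, and each Ink4a/Arf-/- array left out in turn.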

Additional observations from a re-analysis of the deposited data

Results flagged for a closer look

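By limma's test the Ezh2 difference differed between the backgrounds for 88 of 20723 genes (0.425%), none of them a collagen. P-values were Benjamini-Hochberg adjusted, and values are the difference in Ink4a/Arf-/- cells minus that in Ink4a/Arf+/+ cells. Of the 88, 4 are in the pathway, marker and collagen-like lists. They were 1 of 47 pathway genes, 2 of 6 smooth muscle and pericyte markers and 1 of 28 collagen-like genes. The collagen-like list was chosen after the files were seen. The procollagen proteinase Tll1 differed by 1.27 (limma adjusted p = 0.037). C1qtnf3, a secreted protein with a collagen-like stretch, differed by -1.52 (limma adjusted p = 0.0237), with 11.70 and 11.65 in Ink4a/Arf-/- Ezh2 -/- cells, against 11.52 and 11.49 in fx/fx cells, and 11.15 in Ink4a/Arf+/+ Ezh2 -/- cells, against 9.47 in fx/fx cells. Des, the muscle filament gene desmin, differed by 1.89 (limma adjusted p = 0.0235), with 7.01 in Ink4a/Arf+/+ Ezh2 -/- cells, against 8.75 in fx/fx cells. Rgs5, a pericyte marker, differed by -1.75 (limma adjusted p = 0.0276), with 9.80 and 9.63 in Ink4a/Arf-/- Ezh2 -/- cells, against 9.13 and 9.08 in fx/fx cells, and 12.53 in Ink4a/Arf+/+ Ezh2 -/- cells, against 10.17 in fx/fx cells. All 4 rest on 1 Ink4a/Arf+/+ array per genotype and on the assumption that log2 differences have the same size on both scales.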

How the results depend on the processing

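The number of collagens that limma called for Ezh2 loss in Ink4a/Arf-/- cells was 1 (Col10a1) with a variance trend and 0 under each of the other alternatives. For the difference between the backgrounds it was 4 with the trend (Col6a3, Col8a1, Col10a1 and Col18a1), 3 without the dimmest 30% of probe sets and 0 otherwise. Over all probe sets these settings raised the calls as well, for the 2 comparisons to 48 and 627 with the trend and to 4 and 355 without the dimmest, against 0 and 95, and quantile normalization gave 0 and 268. With the replicate number as a replicate block, limma called 0 collagens in both comparisons, and 0 and 6 probe sets in all. The block also ended the background difference calls of C1qtnf3, Des and Rgs5 (adjusted p = 0.0857 each) and of Tll1 (0.107), and C1qtnf3 was lost without Ezh2 -/- replicate 2 (0.0532). At 1.5-fold instead of 2-fold 4 collagens differed in Ink4a/Arf+/+ cells. Leaving out 1 Ink4a/Arf-/- array gave 16 to 36 collagens above 0, a median of -0.05 to 0.08 and a network-forming median of 0.18 to 0.35. Quantile normalization turned the sign of Col3a1 (0.0039) and Col6a2 (0.0122) in Ink4a/Arf-/- cells and of Col12a1 between the backgrounds (-0.0049), and the cause was not tested. When 1 array was left out, signs turned for genes near 0, with these ranges in Ink4a/Arf-/- cells: Col1a1 -0.0072 to 0.0081, Col3a1 -0.0510 to 0.0293, Col4a1 -0.0289 to 0.0722, Col5a1 -0.10 to 0.0131, Col5a2 -0.0131 to 0.0141, Col6a1 -0.11 to 0.0158, Col6a2 -0.0748 to 0.0594, Col6a5 -0.10 to 0.21, Col6a6 -0.23 to 0.13, Col15a1 -0.0552 to 0.15, Col19a1 -0.0488 to 0.13. For the difference between the backgrounds the ranges were Col4a2 -0.0695 to 0.0776, Col5a1 -0.12 to 0.0011, Col6a1 -0.0392 to 0.0873, Col6a2 -0.0408 to 0.0935, Col6a5 -0.23 to 0.0827, Col6a6 -0.31 to 0.0420, Col12a1 -0.0495 to 0.0802, Col15a1 -0.0747 to 0.13. The value table of the series held the same levels as the 2 tables and so gave no separate result. With 1 array per genotype no call can be made within Ink4a/Arf+/+ cells alone, and genes below the array median may lie near background, which the tables do not give.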

Other observations

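Genes with collagen-like stretches that the symbol rule leaves out were looked at after the files were seen, and their list of 28 was not tested as a set. In Ink4a/Arf-/- cells 18 of 28 had an Ezh2 difference above 0, against 39.5% of all genes, with a median of 0.02, against -0.02 over all genes, and in Ink4a/Arf+/+ cells 21 of 28, against 51.1% of all genes, with a median of 0.19, against 0.01 over all genes. At least 1.5-fold higher in Ink4a/Arf+/+ Ezh2 -/- cells were 5 of them, C1qtnf3 (1.69), Gldn (0.93), C1qtnf5 (0.82), C1qtnf7 (0.76) and Scara5 (0.73), against 2.62% of all genes, and 0 were lower by as much, against 1.63%. In Ink4a/Arf-/- cells Ccbe1, a secreted factor of lymphatic growth, read 9.70 and 9.67 in Ezh2 -/- cells, against 9.41 and 9.25 in fx/fx cells. Gldn, which encodes gliomedin of peripheral nerve, read 7.33 and 7.34, against 7.11 and 6.92 in fx/fx cells. The complement genes C1qa, C1qb and C1qc, made by macrophages, read between 8.14 and 9.61 in Ink4a/Arf-/- cells and between 5.41 and 6.12 in Ink4a/Arf+/+ cells, on separate scales. Of 5 macrophage markers, 2 lay above the array median on each Ink4a/Arf-/- array and 0 on either Ink4a/Arf+/+ array.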
